A study of Homo sapiens with 9 samples.

Results

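The ERBB receptors and the proteins that transmit, inhibit or degrade them were described here at the RNA level in LNCaP cells, a line derived from a human metastatic prostate carcinoma, during treatment with recombinant NRG1. Members were the rows of the count table whose gene symbol was 1 of 10 names: the receptors EGFR, ERBB2 (HER2), ERBB3 (HER3) and ERBB4 (HER4), the inhibitors and turnover factors ERRFI1, LRIG1, RNF41 and CBL, and the adaptors SHC1 and GRB7. All 10 were found among the 37351 genes of the table, and all 10 were among the 19250 genes with enough counts to be tested. The rule used only the names. RNA was sequenced in 9 libraries, 3 at each of 0, 12 and 24 h, labelled as biological replicates of LNCaP cells that had been held in medium without serum and calcium before NRG1 was added at 15 ng/mL. The study's methods give the length of this starvation as a range of hours, without saying whether it was the same in all 3 groups. No cells kept for 12 or 24 h without NRG1 were analysed here, so for every difference from 0 h the ligand and the further time in that medium cannot be told apart. A single cell line was used. The labels call the libraries biological replicates, and the study's methods say that the cells were plated in triplicate. Separate experiments are not described there, so p-values measure only the spread between these libraries.

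NRG1 is a ligand of ERBB3 and ERBB4. Ligand binding opens the extracellular part of ERBB3 and lets it pair with ERBB2, which has no known ligand of its own and acts as the preferred partner, and the pair phosphorylates its own tails and recruits adaptors such as SHC1 that pass the signal to the MAPK and PI3K routes. The signal is limited by proteins that block the kinase domain, such as ERRFI1, and by ubiquitin ligases, such as CBL and RNF41, that send receptors to degradation.

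ERBB3 differs from the other receptors in its kinase domain, which is why it depends on a partner. The coding sequence around the catalytic loop is shown for the 4 receptors, because the difference can be read in it. Each line gives 24 bases in the coding direction, 5′ to 3′, from exon 21 of the canonical transcript in GRCh38, with the codon of the catalytic residue in capitals.
EGFR, chr7:55191752-55191775, plus strand: caccgcGACctggcagccaggaac
ERBB2, chr17:39725082-39725105, plus strand: cacaggGACttggccgctcggaac
ERBB3, chr12:56097818-56097841, plus strand: catagaAACctggctgcccgaaac
ERBB4, chr2:211431044-211431067, minus strand: catcggGATttggcagcccgtaat
EGFR, ERBB2 and ERBB4 carry an aspartate codon there, and ERBB3 carries an asparagine codon. Counted from 1 at the 5′ end of the stretch, with EGFR as the reference, this difference is G7A. Over the 24 bases ERBB2 differed from EGFR at 6 positions, and ERBB3 and ERBB4 at 7 each.

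The libraries held 47016302 to 60985825 counts. Replicates differed by more than sampling noise in each pair (chi-square per degree of freedom of 3.15 to 9.45), which does not show whether they are independent. Each library was treated as 1 sample, and edgeR put the biological variation common to all genes at 4.07%. The luminal prostate markers KLK3, KRT8, KRT18 and HOXB13 were all abundant, at 994 ± 20.1, 536 ± 27.7, 368 ± 33.5 and 469.5 ± 11.4 CPM at 0 h (SD, n = 3; counts relative to the library size, which was scaled by TMM, the trimmed mean of M values). The 14 markers of stromal, immune, endothelial and basal cells had a sum between 40.4 and 43.4 CPM at 0 h, between 34.2 and 36.8 at 12 h and between 34.1 and 35.3 at 24 h, and 7 of them were under 10 counts in every library. None was at 0 in all libraries, COL1A1 and VWF held most of the sum, and the part of these markers in the results was not tested. The 6 ERK output genes DUSP6, SPRY4, ETV4, ETV5, EGR1 and FOS all rose at both times (by 4.25 to 6.47 on the log2 scale at 12 h and by 4.62 to 7.26 at 24 h). They were chosen with earlier results of these data known. The ligand and the further time in medium cannot be told apart for them either, so their rise is no test of a response to NRG1.

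Against 0 h, 3 of the 10 members changed at 12 h and 4 at 24 h, and none changed between 12 and 24 h. ERRFI1, a feedback inhibitor of the receptor kinases, rose at both times, and ERBB2 and LRIG1 fell at both times. RNF41, a ubiquitin ligase for ERBB3, rose at 24 h. A change here means an edgeR quasi-likelihood p-value, with Benjamini-Hochberg adjustment across the 19250 tested genes, of at most 0.05. By that rule 18.7% of all tested genes changed at 12 h and 21.1% at 24 h against 0 h, and 6.08% between 12 and 24 h, beside 3, 4 and 0 of 10 members. Split by direction, 10.6% of genes rose and 8.16% fell at 12 h, 11.6% rose and 9.48% fell at 24 h, and 3.03% rose and 3.05% fell from 12 to 24 h. No member changed by 1.5-fold, a size passed by 2.37% and 3.31% of genes against 0 h and by 0.452% between the later times. The median absolute log2 fold change of the members was 0.10 at 12 h and 0.16 at 24 h, beside 0.13 at both times over all tested genes. Both comparisons share the same 0 h libraries.

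**Figure D1:**
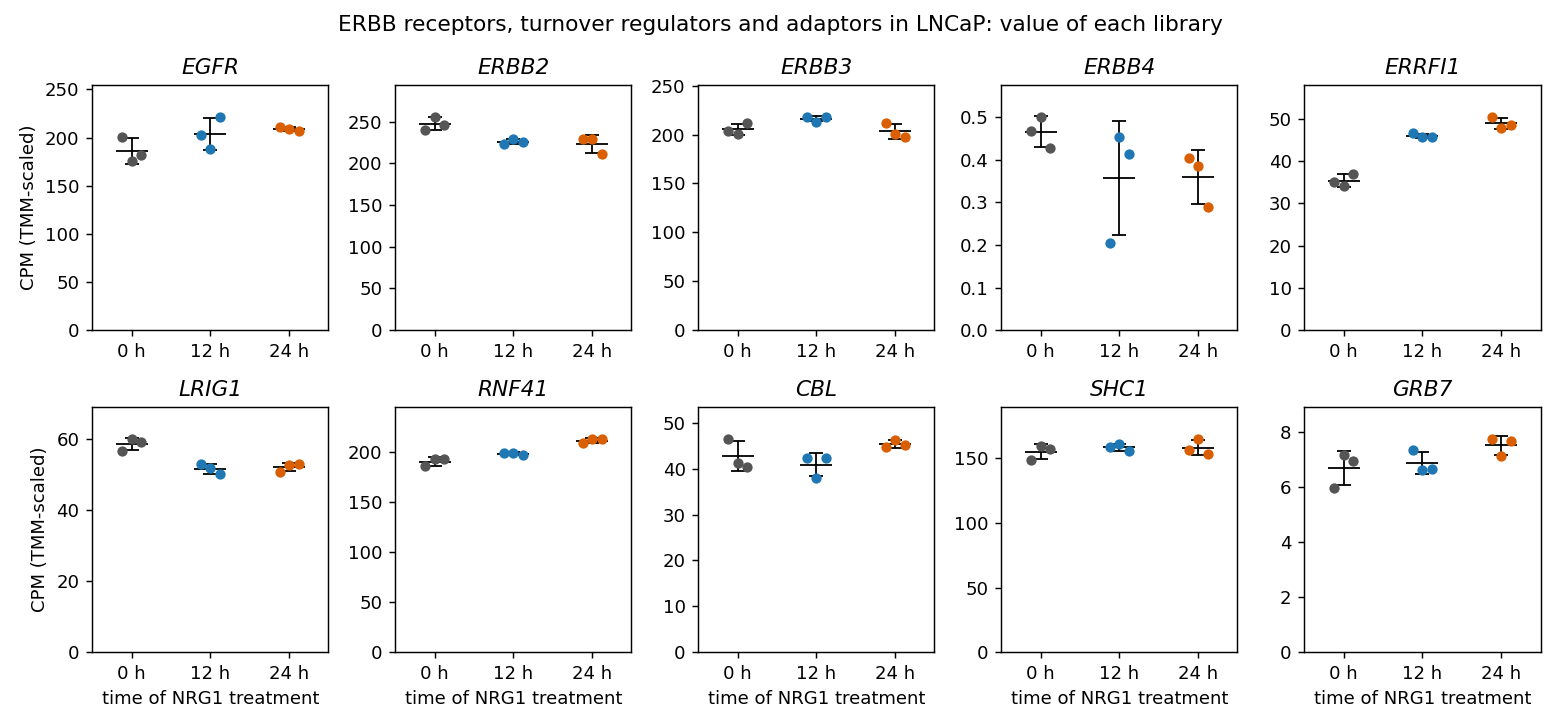
CPM of the 10 genes in each of the 9 libraries (points), with the mean and SD of the 3 libraries of a time (bars), against the time of NRG1 treatment. Each panel starts at 0 and has its own scale. ERRFI1 at 12 and 24 h lies wholly above 0 h, ERBB2 and LRIG1 lie wholly below it, and the points of SHC1 and GRB7 overlap.

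The relative abundance of the receptors was compared per length, as CPM per kilobase of exon (all exons of a gene merged, GENCODE v44 on GRCh38). ERBB2 was the most abundant ERBB transcript at 0 h, at 24.0 ± 0.750 CPM per kilobase. ERBB3 followed at 17.5 ± 0.485 and EGFR at 11.7 ± 0.829, and ERBB4 stood at 0.0358 ± 0.00277 (SD, n = 3 each). The ranges of neighbours in this order did not overlap at 0 h, and the same was true at 12 h and at 24 h.

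The distance between neighbours was small among the first 3 receptors. ERBB2 exceeded ERBB3 by 1.37-fold at 0 h, 1.19-fold at 12 h and 1.24-fold at 24 h. ERBB3 exceeded EGFR by 1.503-fold, 1.44-fold and 1.33-fold at the same times. EGFR exceeded ERBB4 by 326-fold at 0 h, with ERBB4 resting on 25 to 29 counts per library.

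This order depended on the length that was used. With the length of the canonical transcript it was the same, and at 0 h the steps were 1.49-fold from ERBB2 to ERBB3 and 1.95-fold from ERBB3 to EGFR. The coding length of that transcript leaves out untranslated exons, but the counts still included reads from them. This raises a gene with long untranslated exons, such as EGFR (9905 bases in all, 3630 coding), beside ERBB3 (5615 and 4026). By coding length, ERBB3 and EGFR overlapped at 0 and 12 h, and EGFR lay above ERBB3 by 1.14-fold at 24 h without overlap. ERBB2 and EGFR overlapped by this length at 12 and 24 h. ERBB4 was last under all 3 lengths. The isoforms in use were not measured, so the place of EGFR relative to ERBB3 is uncertain.

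As shares of the 4 receptors by exon length, ERBB2 made up 45.1% ± 1.55 at 0 h, 41.2% ± 1.151 at 12 h and 41.5% ± 0.850 at 24 h. EGFR made up 21.9% ± 1.52, 24.1% ± 1.45 and 25.1% ± 0.551. ERBB3 held 32.9% ± 0.805, 34.7% ± 0.503 and 33.3% ± 0.594, and ERBB4 at most 0.0726% in any library. Every 12 and 24 h library had a lower share of ERBB2 than every 0 h library (exact permutation p = 0.1 in both cases, two-sided, the smallest that 3 against 3 allows, and 0.212 after adjustment over 36 tests of shares).

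Among 24 receptor tyrosine kinases set side by side at 0 h by exon length, ERBB2, ERBB3 and EGFR ranked 1, 3 and 4, and ERBB4 ranked 20. The collagen receptor DDR1 ranked 2, at 21.7 ± 0.392 CPM per kilobase. The 0 h ranges of ERBB2 (23.3 to 24.8) and DDR1 did not overlap. With the coding length, where reads of untranslated exons stay in the counts, DDR1 (71.5 to 73.8) lay above ERBB2 (63.8 to 67.9). EGFR and ERBB3 then ranked 3 and 4. At 12 h DDR1, at 23.04 ± 0.427, lay above ERBB2, at 21.9 ± 0.272, again without overlap, and at 24 h their ranges overlapped. PTK7 ranked 5 at 8.31 ± 0.0868, below all 3 libraries of EGFR, whereas with the canonical transcript length its range (17.5 to 17.8) overlapped that of EGFR (17.7 to 20.3). ERBB4 ranked 20 under all 3 lengths.

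**Figure D2:**
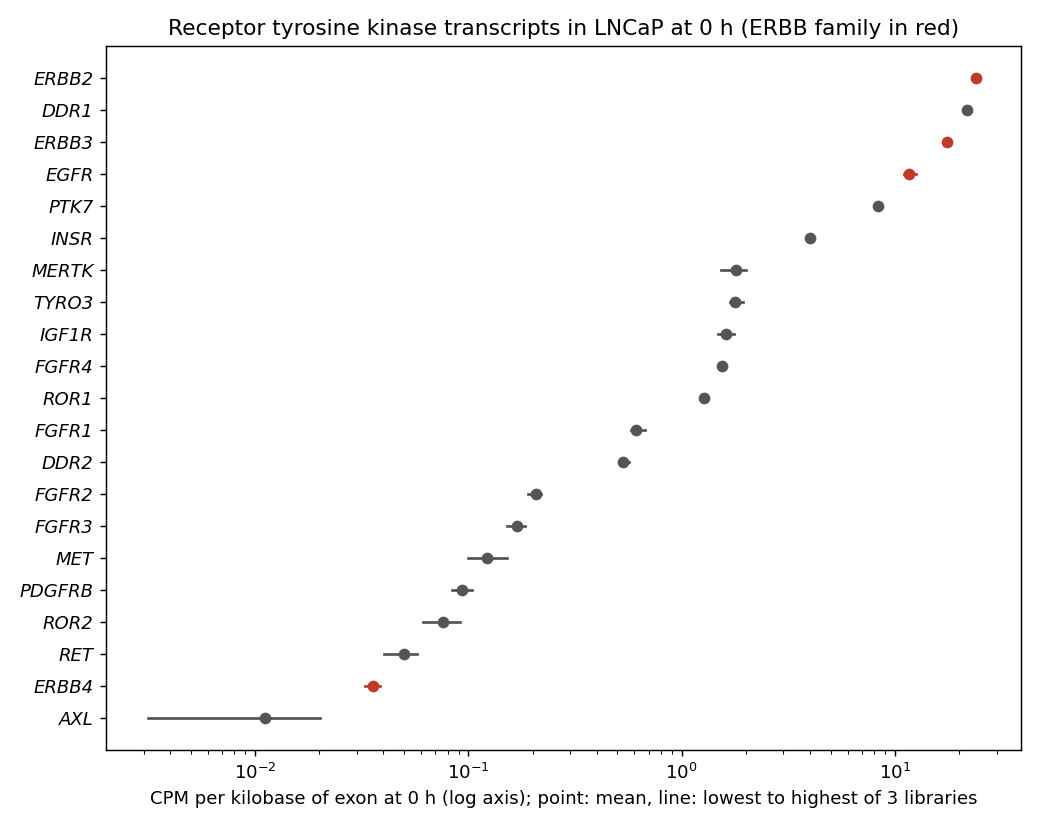
Level of receptor tyrosine kinase transcripts at 0 h, in CPM per kilobase of exon on a log axis, with the mean of 3 libraries (point) and their lowest to highest value (line). Genes with a 0 h library at 0 (MST1R, KIT and PDGFRA) are left out because a log axis cannot show them. ERBB2, ERBB3 and EGFR lie at the upper end and ERBB4 near the lower end.

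ERBB2 (ENSG00000141736.14, chromosome 17, 39687914 to 39730426, plus strand, GRCh38) fell. Its level was 240.3, 255.7 and 246.3 CPM in the 0 h libraries, 223.0, 228.6 and 226.1 at 12 h, and 229.7, 228.7 and 211.0 at 24 h. All 6 later libraries lay below all 3 of 0 h, while 12 and 24 h overlapped. The log2 fold change was -0.13 at 12 h (SE 0.034, edgeR adjusted p = 0.0052) and -0.15 at 24 h (SE 0.034, edgeR adjusted p = 0.00126). In percent, the change was -8.69% at 12 h (95% interval -13.0 to -4.17) and -9.83% at 24 h (-14.1 to -5.36). The call held at both times in all 16 alternative fits, which comprised DESeq2, 2 other scalings, 2 other filters, the 6 libraries alone, a replicate block and each of 9 libraries left out.

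Part of the ERBB2 count is uncertain, because the locus is shared. The 3′ exons share 571 bases with MIEN1, which is read from the opposite strand and had 15.1% as many counts as ERBB2. The first exons overlap PGAP3 over 144 bases (6.84% as many counts). Whether reads were counted by strand is not given in the sources used here. Mean CPM of MIEN1 was 34.5 at 0 h, 35.5 at 12 h and 35.8 at 24 h, and thus no lower at the later times, while PGAP3 was at 16.8, 14.1 and 16.8. The part of either gene in the ERBB2 result was not tested.

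The promoter windows that RefSeq gives for the members (GRCh38.p14, 250 bases before and 50 after a start) were searched on both strands for 5 motifs of the factors that act at the end of the ERK route. These were the AP-1 site TGANTCA, the CRE TGACGTCA, the EGR site GCGNGGGCG, the ETS site CCGGAAGT and the CArG box. ERBB3, CBL and GRB7 had no window. The single ERBB2 window (start at base 39688094 of chromosome 17) held 1 AP-1 match and a pair of ETS matches just before the start. The ETS match further from the start is on the minus strand and the nearer one on the plus strand, so they point away from each other. The stretch from 32 to 3 bases before the start is given with the ETS matches in capitals.
ERBB2, chr17:39688062-39688091, plus strand: cttccACTTCCGGagtaaCCGGAAGTtcct
An ETS match was present in 4.14% of all 35116 windows in the table and an AP-1 match in 7.71%. This window belongs to an upstream start. The canonical ERBB2 transcript begins at base 39700064, where no window was given. A match is a description of the letters and does not show that a factor binds there.

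ERBB3 (ENSG00000065361.17, chromosome 12, 56076799 to 56103505), the receptor that binds NRG1, did not pass the test at either time. Its level was 203, 201 and 212 CPM at 0 h, 218, 213 and 218 at 12 h, and 212, 200.2 and 198 at 24 h. The 3 libraries of 12 h lay above those of 0 h and of 24 h, which overlapped each other. The log2 fold change was 0.075 at 12 h (edgeR adjusted p = 0.119) and -0.013 at 24 h (edgeR adjusted p = 0.838). The 95% intervals allow a change of 0.529 to 10.4% at 12 h and of -5.45 to 3.83% at 24 h. ERBB3 passed in none of the 16 alternatives at either time.

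EGFR (ENSG00000146648.20, chromosome 7, 55019017 to 55211628), which does not bind NRG1, was the least settled of the abundant receptors. Its level was 200.7, 175 and 182 CPM at 0 h, 203, 188 and 221 at 12 h, and 211, 209 and 207 at 24 h. The 12 h libraries overlapped those of 0 h, and the 24 h libraries lay above them. The log2 fold change was 0.13 at 12 h (SE 0.057, edgeR adjusted p = 0.138) and 0.17 at 24 h (SE 0.057, edgeR adjusted p = 0.058), neither of which passed.

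The libraries of EGFR were spread more widely than those of most genes. Its SD within groups ranked at percentile 95.9 among the 6145 genes whose mean level was at least 5 on the log2 CPM scale, against 55.9 for ERBB2 and 35.7 for ERBB3. The edgeR fit with all genes of the table gave an adjusted p of 0.00269 at 12 h and 8.41e-05 at 24 h, and DESeq2 gave 0.0455 and 0.00764. EGFR also passed at both times without 0 h replicate 1, the highest of its group (log2 fold changes of 0.20 and 0.23), and without 12 h replicate 2 (0.19 and 0.17), and at 24 h without 12 h replicate 3 (0.17). In all it passed in 5 of 16 alternatives at 12 h and in 7 of 16 at 24 h, always as higher.

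ERBB4 (ENSG00000178568.15, chromosome 2, 211375717 to 212538841), the other NRG1 receptor, was barely present. Its 0 h libraries held 25 to 29 counts, those of 12 h 11 to 24 and those of 24 h 15 to 21. Its level was 0.468, 0.500 and 0.428 CPM at 0 h, 0.204, 0.454 and 0.413 at 12 h, and 0.405, 0.386 and 0.288 at 24 h. The 24 h libraries lay below those of 0 h, and the 12 h libraries overlapped them. The log2 fold changes of -0.39 and -0.37 each had an SE of 0.38 (edgeR adjusted p = 0.556 and 0.565), and the 95% interval at 24 h ran from -54.9 to 32.3%, so this depth could not show whether ERBB4 changed by as much.

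Ratios of CPM between receptors were taken within each library, which removes the library size. They carry no correction for length, so only their change over time is read here, not their value. At 0 h the ratio of ERBB3 to ERBB2 CPM was 0.830 ± 0.0389, and at the later times it was 0.957 ± 0.0236 and 0.912 ± 0.0327 (SD over 3 libraries). All later libraries lay above all 0 h libraries. The ratio of EGFR to ERBB2 was 0.753 ± 0.0759, 0.904 ± 0.0785 and 0.937 ± 0.0372, with overlap between 0 and 12 h and none between 0 and 24 h. The ratio of EGFR to ERBB3 went from 0.906 ± 0.0713 at 0 h to 1.03 ± 0.0271 at 24 h, also without overlap. Where the ranges were apart, the two-sided exact permutation p of the log2 ratio was 0.1, the smallest this design allows, and 0.225 after adjustment over the 9 ratio tests, so none of these shifts can reach 0.05 on its own.

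**Figure D3:**
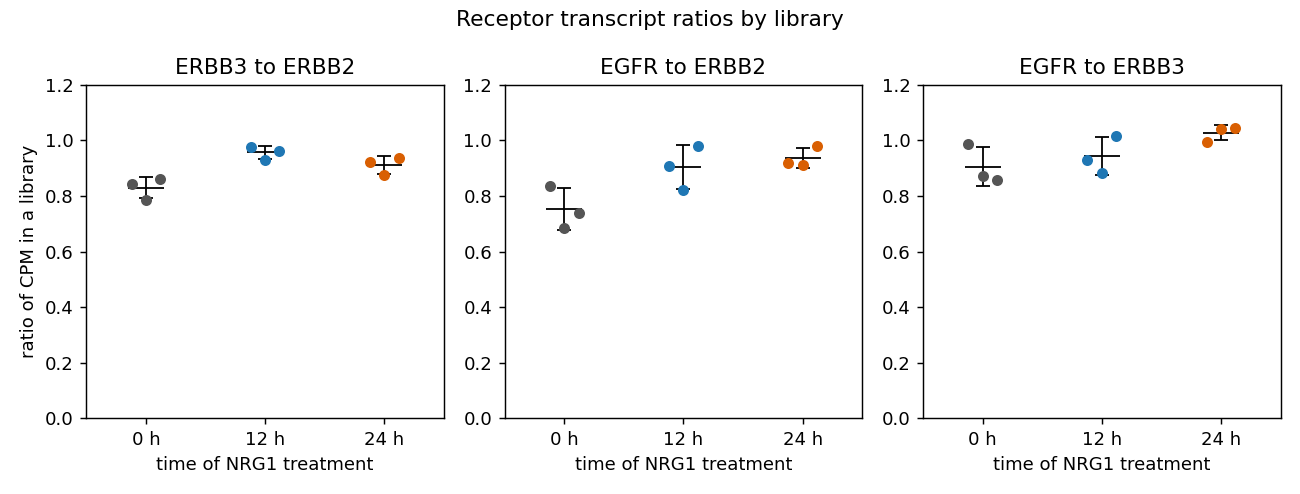
Ratio of the CPM of 2 receptors within each library (points), with mean and SD of the 3 libraries of a time (bars). All 12 and 24 h points lie above the 0 h points for ERBB3 to ERBB2, while for EGFR to ERBB2 the 0 and 12 h points overlap.

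ERRFI1 (MIG6; ENSG00000116285.13, chromosome 1, 8004404 to 8026309, minus strand) encodes a cytoplasmic inhibitor that binds the ERBB kinase domains and is itself induced by receptor signalling. It had the largest change among the members that passed. Its level was 35.1, 34.1 and 36.9 CPM at 0 h, 46.6, 45.6 and 45.7 at 12 h, and 50.4, 47.8 and 48.6 at 24 h. The 3 times did not overlap, and each library lay above all libraries of the earlier time. The log2 fold change was 0.38 at 12 h (SE 0.043, edgeR adjusted p = 2.68e-08) and 0.47 at 24 h (SE 0.043, edgeR adjusted p = 1.18e-10). In percent this was a gain of 29.9% (95% interval 22.2 to 38.04) and of 38.3% (30.2 to 46.98), so both intervals end below 1.5-fold. The step from 12 to 24 h, 0.091, did not pass (edgeR adjusted p = 0.238). Every one of the 16 alternatives called the rise at both times, and its log2 size lay between 0.35 and 0.41 at 12 h and between 0.44 and 0.50 at 24 h.

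The RefSeq window of ERRFI1 starts at the first base of its canonical transcript, 8026309. None of the 5 motifs was found in it. The 250 bases before the start are shown because this member rose most among those that passed.
ERRFI1, chr1:8026310-8026559, minus strand: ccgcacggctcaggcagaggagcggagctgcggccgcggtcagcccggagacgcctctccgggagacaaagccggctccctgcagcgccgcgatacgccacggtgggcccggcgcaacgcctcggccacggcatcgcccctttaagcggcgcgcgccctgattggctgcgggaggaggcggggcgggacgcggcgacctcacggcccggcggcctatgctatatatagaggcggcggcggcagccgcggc
The absence of a match says only that these letters are not in this window.

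LRIG1 (ENSG00000144749.14, chromosome 3, 66378797 to 66501263, minus strand) encodes a transmembrane protein that binds ERBB receptors and promotes their degradation. It moved opposite to ERRFI1. Its level was 56.7, 60.1 and 59.1 CPM at 0 h, 53.0, 52.0 and 50.2 at 12 h, and 50.8, 52.8 and 53.1 at 24 h. All 6 later libraries were below the 0 h libraries, and 12 and 24 h overlapped. LRIG1 fell by 0.18 on the log2 scale at 12 h (SE 0.040, edgeR adjusted p = 0.00104) and by 0.17 at 24 h (SE 0.040, edgeR adjusted p = 0.00197), and all 16 alternatives called the fall at both times. The end of LRIG1 overlaps SLC25A26 on the other strand over 2669 exon bases. SLC25A26 had 33.6% as many counts as LRIG1 and stood at 17.97, 19.6 and 17.4 CPM at the 3 times, so an unknown part of the LRIG1 count may belong to it.

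LRIG1 has 4 RefSeq windows, of which the one at its canonical start held no match. The one at an internal start, base 66405767, held a pair of AP-1 matches. They are in capitals in the stretch from 171 to 66 bases before that start, shown as the only matches of this gene.
LRIG1, chr3:66405833-66405938, minus strand: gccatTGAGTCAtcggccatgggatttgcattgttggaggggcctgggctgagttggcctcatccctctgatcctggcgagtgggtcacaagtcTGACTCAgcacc
One of the windows of EGFR, also at an internal start, held a pair of AP-1 matches as well, SHC1 had 1 AP-1 and 1 ETS match in separate windows, and the windows of ERBB4 and RNF41 held none.

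RNF41 (NRDP1; ENSG00000181852.18, chromosome 12, 56202179 to 56221933, minus strand) encodes the ubiquitin ligase that keeps ERBB3 protein low. Its level was 186, 193 and 193 CPM at 0 h, 199.5, 199 and 197 at 12 h, and 209, 213 and 213 at 24 h. The 3 times did not overlap. The log2 fold change was 0.059 at 12 h (SE 0.031, edgeR adjusted p = 0.211), which did not pass, and 0.15 at 24 h (SE 0.031, edgeR adjusted p = 0.00037), a gain of 11.1% (95% interval 6.28 to 16.1). The call at 24 h held in all 16 alternatives. RNF41 had one of the narrowest spreads within groups, at percentile 4.20 among the same 6145 genes. Between 12 and 24 h its log2 difference of 0.093 did not pass (edgeR adjusted p = 0.0739), but it did in 4 of 16 alternatives, among them DESeq2 (adjusted p = 0.0294). In the coordinates of the table it overlapped no other gene.

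CBL (ENSG00000110395.7, chromosome 11, 119206298 to 119313926, plus strand) encodes the ubiquitin ligase recruited to activated EGFR. Its level was 46.5, 41.2 and 40.4 CPM at 0 h, 42.3, 37.9996 and 42.3 at 12 h, and 44.8, 46.3 and 45.2 at 24 h. The 0 h libraries overlapped both later times, and 24 h lay above 12 h. Neither the 12 h log2 fold change of -0.065 (edgeR adjusted p = 0.423) nor the 24 h value of 0.089 (edgeR adjusted p = 0.227) passed. As with EGFR, the highest 0 h value was that of replicate 1, and without this library CBL passed at 24 h (log2 fold change 0.16, edgeR adjusted p = 0.0166). Its SD within groups ranked at percentile 94.2. The difference of 24 h from 12 h was 0.15 (edgeR adjusted p = 0.0632), which passed in 4 of 16 alternatives.

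**Figure D4:**
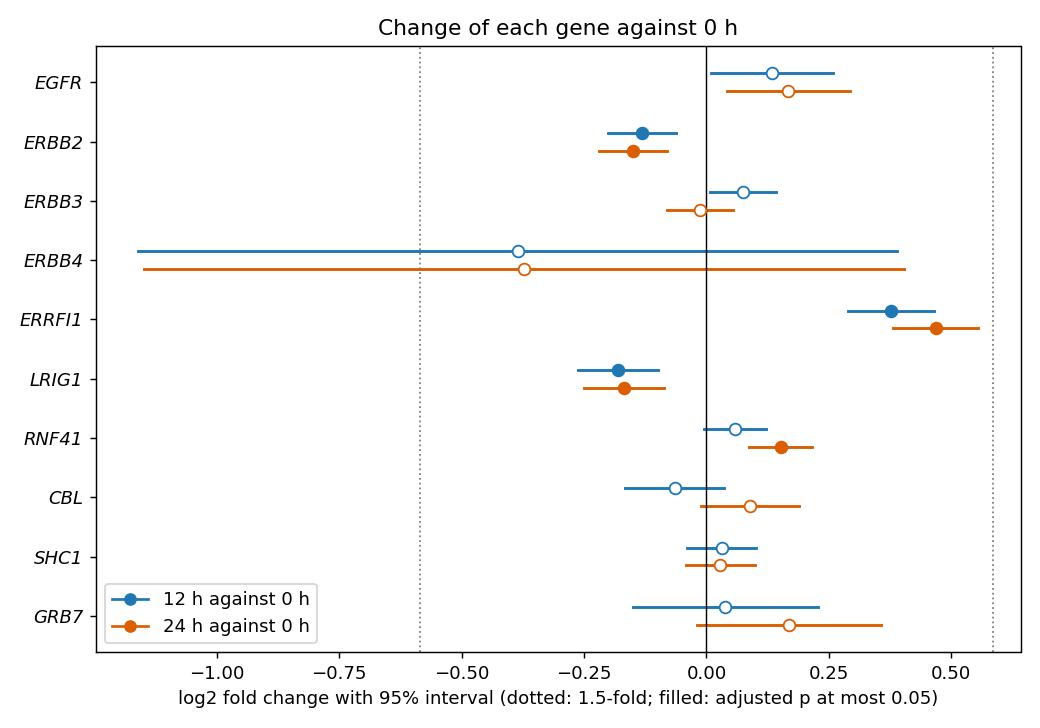
Log2 fold change of each gene against 0 h at 12 h and at 24 h (points) with its 95% interval (lines). Filled points have an edgeR adjusted p of at most 0.05 and dotted lines mark 1.5-fold. ERBB2 and LRIG1 lie left of 0 and ERRFI1 right of it at both times, no point that passed reaches a dotted line, and the interval of ERBB4 is the widest.

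SHC1 (ENSG00000160691.19, chromosome 1, 154962298 to 154974395, minus strand) encodes the adaptor that links ERBB receptors to GRB2 and the RAS route. Its level was 149, 159 and 157 CPM at 0 h, 158, 161 and 156 at 12 h, and 156, 165 and 153 at 24 h, so all 3 times overlapped. The log2 fold changes were 0.031 at 12 h and 0.029 at 24 h (edgeR adjusted p = 0.613 and 0.640). The 95% intervals ran from -2.72 to 7.32% and from -2.89 to 7.14%, so a change larger than these bounds is outside the intervals. SHC1 overlaps PYGO2 on the same strand over 335 bases. PYGO2 had 41.6% as many counts as SHC1 and stood at 66.3, 64.6 and 65.0 CPM at the 3 times.

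GRB7 (ENSG00000141738.14, chromosome 17, 39737927 to 39747291, plus strand) encodes an adaptor that binds phosphorylated ERBB receptors, and it lies beside ERBB2. It was scarce, with 322 to 415 counts per library. Its level was 5.99, 7.16 and 6.95 CPM at 0 h, 7.34, 6.62 and 6.65 at 12 h, and 7.76, 7.14 and 7.70 at 24 h. The times overlapped. The log2 fold change was 0.038 at 12 h and 0.17 at 24 h (SE 0.092, edgeR adjusted p = 0.217), with a 95% interval at 24 h of -1.28 to 28.02%.

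By the spread of single libraries, the ranges of 5 of 10 members did not overlap between 0 and 12 h, where 32.8% of all tested genes did not overlap. Between 0 and 24 h the count was 6 of 10, beside 33.5% of genes, and between 12 and 24 h it was 4 of 10, beside 24.4%. One test over the 3 times called ERBB2, ERRFI1, LRIG1 and RNF41, beside 25.1% of genes, with CBL next (edgeR adjusted p = 0.0584), then ERBB3 (0.0837) and EGFR (0.0971).

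**Figure D5:**
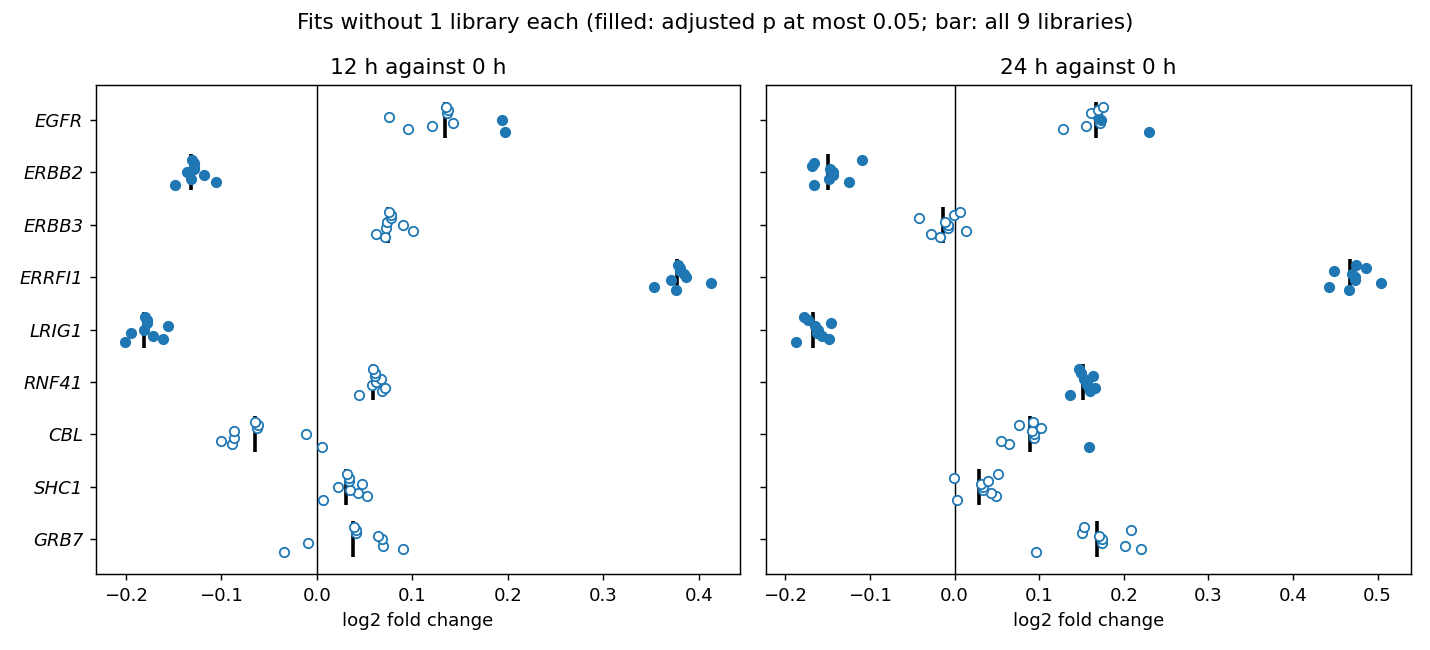
Log2 fold change against 0 h in the 9 fits that each leave out 1 library (points, offset vertically to keep them apart), and in the fit of all 9 libraries (black bar), for 9 genes. Filled points have an edgeR adjusted p of at most 0.05. ERBB2, ERRFI1 and LRIG1 are filled throughout, EGFR is filled in 2 of 9 fits at 12 h and 3 of 9 at 24 h, and ERBB4 is left out for its wide interval.

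The genes whose course over the 9 libraries was most like that of a member called at both times were sought among the 11315 tested genes whose mean level was at least 2 on the log2 CPM scale. Likeness was the root mean square difference of log2 CPM centred on 0 h. For ERRFI1 these were NFKB1 (0.032), PNO1 (0.035) and ELK3 (0.042). For ERBB2 they were MAN2B1, PHLDB1 and FLOT2 (0.023 to 0.027), and for LRIG1 they were PDSS2, DNAJB11 and TRAM1 (0.026 to 0.030).

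Other genes of the route were described from lists made apart from the members. Of 26 other adaptors and proximal effectors, all of them tested, 2 rose and 4 fell at 12 h, and 4 rose and 4 fell at 24 h. These are 23.1% and 30.8% of the list, beside 18.7% and 21.1% of all tested genes. SHC4, a relative of SHC1, rose from 0.906 ± 0.148 CPM to 2.35 ± 0.203 at 12 h and 2.78 ± 0.302 at 24 h (log2 fold changes of 1.37 and 1.62, edgeR adjusted p = 6.64e-07 and 1.18e-08). GRB10, a relative of GRB7, was far more abundant and fell from 397 ± 7.40 CPM to 259 ± 8.69 and 273 ± 2.72 (-0.62 and -0.54). GRB14, the third member of that family, rose at 24 h (0.51, edgeR adjusted p = 0.00183). The PI3K regulatory subunits PIK3R1 (-0.38 and -0.27) and PIK3R3 (-0.23 and -0.21) fell at both times. The median absolute log2 fold change of the list was 0.14 at 12 h and 0.13 at 24 h, close to that of all genes.

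Of 35 other genes of ERBB ubiquitination, endocytosis and dephosphorylation, 34 were tested. At 12 h 5 rose and 6 fell, and at 24 h 10 rose and 4 fell, or 32.4% and 41.2% of those tested, beside the same 18.7% and 21.1% of all genes. CBLB, a paralog of CBL, rose from 34.5 ± 2.11 CPM to 41.5 ± 1.67 and 45.7 ± 1.93 (log2 fold changes of 0.27 and 0.41, edgeR adjusted p = 7.16e-05 and 3.23e-08). LRIG3, a paralog of LRIG1, fell as LRIG1 did (-0.42 and -0.28). The kinase TNK2 rose (0.32 and 0.44), the CBL-binding scaffold CD2AP fell (-0.31 and -0.37), and the receptor phosphatase PTPRK rose at 24 h (0.35, edgeR adjusted p = 0.00394), with ranges that overlapped those of 0 h. The median absolute log2 fold change was 0.078 and 0.12, beside 0.13 over all genes at each time. All tested genes were not matched by level to this list, to the other lists or to the members. The part of level in these shares was not tested.

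Of 20 other receptor tyrosine kinases, 16 were tested. At 12 h 3 rose and 1 fell, and at 24 h 6 rose and 1 fell, or 25% and 43.8% of those tested, again beside 18.7% and 21.1%. IGF1R rose from 22.5 ± 1.99 CPM to 29.2 ± 3.26 and 30.9 ± 1.17 (log2 fold changes of 0.37 and 0.45, edgeR adjusted p = 0.000502 and 4.4e-05). TYRO3 (0.23 and 0.38) and FGFR4 (0.24 and 0.35) rose at both times, ROR1 fell at 12 h (-0.27, edgeR adjusted p = 0.0401) and FGFR2 rose at 24 h (0.72, edgeR adjusted p = 9.24e-06). In level at 0 h all of these lay below EGFR, with IGF1R at 1.61 ± 0.143 CPM per kilobase of exon. The median absolute log2 fold change of the list was 0.19 and 0.34 at these times, beside 0.13 over all genes. Depth was uneven in this list: at 24 h RET had 8 to 11 counts per library and DDR1 had 9627 to 11071. The part of depth in these medians was not tested.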

How the data were processed

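RNA of LNCaP cells was measured in 9 mRNA libraries, 3 at each time, grouped and numbered by the sample titles. Per the study's methods, the authors sequenced read pairs, trimmed them with Cutadapt, aligned them to GRCh38.p13 with STAR and counted reads per gene with featureCounts (GENCODE v38). The authors deposited raw counts per gene as whole numbers, without normalization or pooling. The strand setting and the treatment of reads that map to several places are not given in the sources used here. The authors dropped 1 LNCaP replicate of time 0 on quality grounds, and the methods do not name its experiment. By the study's figure legends replicate numbers varied in the ASPN RNA-seq but not in that with NRG1, so the dropped library was probably one of the former. All 3 libraries of 0 h in the table were used. In addition, 14 empty columns were not used. Total counts of 47016302 to 60985825 per library, without molecular identifiers, set a precision that covers counting error only.

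Counts of all 9 libraries were fitted with edgeR 4.0.16 in R 4.3.3 (filterByExpr, TMM, robust quasi-likelihood F test, no covariate), with p-values adjusted over all 19250 tested genes. Intervals are at 95%. Levels are CPM on TMM-scaled library sizes, per kilobase where genes are compared, with lengths from GENCODE v44, in which all 10 members had the same span as in the table. Ratios and shares were tested by exact permutation of 3 against 3 libraries (SciPy 1.17.1). The members, lists and tests were chosen with earlier results of these data known. Of each list, the text names the 4 genes with the largest change among those past the threshold at each time (average log2 CPM of at least 1); DDR1 and PTK7 were named after their values were seen. Alternatives were DESeq2 1.42.0, other scaling, all genes with a count, a fit of just the 6 libraries compared, a block for the replicate number, a fold threshold, other lengths, and each library left out in turn. The edgeR and DESeq2 fits were tested on simulated counts for 12 h against 0 h only. The other steps were not tested in this way. Replicate numbers did not pair the libraries: the correlation of deviations was -0.037 to 0.029 in 9 pairs with the same number. Sequences came from the GRCh38 genome and the RefSeq promoter table. A marker of the luminal list, and the sum that includes it, are not reported here.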

Additional observations from a re-analysis of the deposited data

Results flagged for a closer look

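For 10 genes of the adaptor, turnover, kinase and ERK output lists the change from 0 h differed between the later times, as the edgeR test of 24 h against 12 h showed. None of them is among the 10 members. Of the genes tested, these were 2 of 26 adaptors and effectors, 3 of 34 turnover factors and 1 of 16 kinases. Those are 7.69%, 8.82% and 6.25%, near the 6.08% of all tested genes that changed between 12 and 24 h. In the ERK output list it was 4 of 6, or 66.7%. Among adaptors and effectors, PIK3R1 was higher at 24 h than at 12 h by 0.12 on the log2 scale (edgeR adjusted p = 0.0301), so its fall was smaller at 24 h, and ERBIN, an ERBB2-binding scaffold, by 0.13 (0.0268). Among turnover factors, the ubiquitin ligase STUB1 was higher by 0.17 (edgeR adjusted p = 0.00512), the endocytic adaptor EPS15 by 0.13 (0.0154) and the CBL-binding SH3KBP1 by 0.20 (0.00891). Mean CPM at 0, 12 and 24 h was 111.0, 104.0 and 113.8 for ERBIN and 81.1, 77.7 and 87.4 for STUB1. Both means were below 0 h at 12 h and above it at 24 h, with ranges that overlapped those of 0 h. FGFR2 was higher by 0.72 (edgeR adjusted p = 6.79e-05), from 3.91 ± 0.642 to 6.44 ± 0.347 CPM. Of the ERK output genes, DUSP6 (0.42), ETV4 (0.79), ETV5 (0.40) and FOS (0.28) were higher at 24 h. The cell type marker lists were left out of this account. The ligand and the time in medium cannot be told apart here.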

How the results depend on the processing

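The count of members called changed stayed at 3 to 4 at 12 h and 4 to 6 at 24 h under the settings without a fold threshold. Between 12 and 24 h, where none was called, DESeq2, unscaled library sizes, no filter on low counts and the replicate block gave 1 each, the fit of only the 6 libraries compared gave 2 (RNF41 and CBL), and leaving out 1 library gave 0 to 2, with 2 without 0 h replicate 1. A fold change of at least 1.5 as well left 0 at 12 h and 0 at 24 h. Calls over all tested genes can move with the setting too. Unscaled library sizes called 1229 genes between the later times, beside 1171 with TMM scaling. For the other settings such totals are not set beside the members here. Whether the members or the setting moved the counts of members was not tested. The replicate numbers pair no libraries beyond the number itself, and the fit with the replicate block called 4 members at 12 h, 5 at 24 h and 1 between them. With canonical transcript length, ERBB2 to ERBB3 was 1.49 at 0 h and 1.35 at 24 h, and ERBB3 to EGFR 1.95 and 1.72. With coding length, where reads of untranslated exons stay in the counts, ERBB2 to ERBB3 was 1.29 and 1.17. By that length ERBB3 to EGFR turned to 0.996 and 0.878. The coding length also turned the change of the ERBB3 share at 24 h against 0 h to -0.165 percentage points. With 1 library left out, the change of the log2 ratio of EGFR to ERBB2 from 12 to 24 h ran from -0.011 to 0.11. The lowest value was that without 12 h replicate 2. The change of the ERBB2 share between these times ran from -0.163 percentage points (without 12 h replicate 3) to 0.943. It was -0.123 without 24 h replicate 2. The cause of these shifts was not tested, apart from the lengths themselves. Among the members, depth limits ERBB4 most, with 11 to 29 counts per library.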
